A study of Mus musculus with 8 samples.

Results

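The genes described here are 33 members of the unfolded protein response and of the ATF4 stress response, taken by their symbols from a table of read counts for 27304 genes in mouse heart. All 33 symbols were found once each. They form an endoplasmic reticulum (ER) arm of 18 genes, which covers chaperones, disulfide isomerases, degradation factors, the stress sensors and Xbp1, and an ATF4 arm of 15 genes, which covers stress regulators, amino acid and one-carbon enzymes and an amino acid transporter. RNA from hearts of male mice of the inbred 129/Sv strain was sequenced after 13 weeks of feeding. The control group (4 libraries, titled Sham) received a standard diet, and the labels name no operation. The adenine group (4 libraries) received a diet containing 0.15% adenine, which injures the kidney tubules and is used as a model of chronic kidney disease. No mouse in either group carried a stated transgene or other treatment, and the age of the mice and the part of the heart taken are not stated in the labels. Whether each library stands for its own animal is not stated, and the series text speaks of samples without replicates, so p-values measure only the spread between these libraries, which may be technical.

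Secreted and membrane proteins fold in the ER with the help of chaperones and of enzymes that form disulfide bonds. When unfolded proteins accumulate there, 3 sensors in the ER membrane, encoded by Atf6, Ern1 and Eif2ak3, raise the production of chaperones and degradation factors and slow translation. Eif2ak3 is also 1 of several kinases that phosphorylate the translation factor eIF2, a step that favours synthesis of the transcription factor ATF4, which in turn drives genes for amino acid supply and for recovery from stress. Heart muscle cells use this network under overload and ischaemia. Much of the signalling runs through cleavage of ATF6, splicing of the Xbp1 messenger by the Ern1 product, phosphorylation of eIF2 and translation of Atf4, none of which a read count per gene measures.

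RefSeq promoters on the GRCm38.p6 build, from 250 bases before to 50 bases after a gene's start, were matched by symbol for 29 of the 33 members. Hyou1, Manf, Atf6 and Slc7a5 had no entry. The ER stress response element, bound by ATF6 and NF-Y, was searched on both strands as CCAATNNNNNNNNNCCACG. It was found in 6 of 15 ER arm genes with a promoter (40.0%) and in 0 of 14 ATF4 arm genes, beside 0.137% of the 27025 genes in the promoter table. Among the folding genes of the ER arm, Sdf2l1, Dnajb9, Pdia3 and Pdia4 had a promoter without it. The sites are shown with 6 bases on either side, 5′ to 3′ along the gene's strand, and with both ends of the element in capitals. Hsp90b1 held the element at a pair of places, and the one nearer its start is shown.
Hspa5 (chr2:34772019-34772049, plus strand): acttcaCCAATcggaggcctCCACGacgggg
Hsp90b1 (chr10:86705527-86705557, minus strand): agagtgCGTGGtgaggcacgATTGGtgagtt
Calr (chr8:84847069-84847099, minus strand): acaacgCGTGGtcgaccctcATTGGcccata
Canx (chr11:50325794-50325824, minus strand): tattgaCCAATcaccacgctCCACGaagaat
Creld2 (chr15:88819514-88819544, plus strand): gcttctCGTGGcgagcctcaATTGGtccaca
Pdia6 (chr12:17266485-17266515, plus strand): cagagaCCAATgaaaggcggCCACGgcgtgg

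The promoter of Hspa5, the gene of the main ER chaperone, is shown in full as the reference case for this arm. The 250 bases that end just before its start (chr2:34771840-34772089, plus strand) carry the element, in capitals, from 65 bases before the start.
Hspa5: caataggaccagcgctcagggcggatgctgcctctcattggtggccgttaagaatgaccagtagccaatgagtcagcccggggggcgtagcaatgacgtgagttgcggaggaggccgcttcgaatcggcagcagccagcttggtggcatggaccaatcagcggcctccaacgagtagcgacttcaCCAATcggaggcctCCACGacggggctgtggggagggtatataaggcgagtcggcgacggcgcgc

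The C/EBP-ATF response element, bound by ATF4 with a C/EBP partner, was searched on both strands as TGATGNAA. It was found in 3 of 14 ATF4 arm genes (21.4%), namely Chac1, Asns and Trib3, in 1 of 15 ER arm genes (6.67%), Herpud1, and in 4.51% of all genes with a promoter. In Trib3 it lay 14 bases or more after the start, and that site is not shown. Herpud1 also held ATTGGNCCACG, a second form of the ER stress element, which 0.0444% of all genes with a promoter held. The core TGACGTGG of the element bound by XBP1 was found in no member of either arm, beside 0.714% of all genes with a promoter. These are matches of letters in a short window, and they do not show binding. The 3 sites of the C/EBP-ATF element before a start are given with its fixed letters in capitals.
Chac1 (chr2:119351043-119351062, plus strand): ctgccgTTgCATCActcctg
Asns (chr6:7693219-7693238, minus strand): gccacaTGATGaAActtccc
Herpud1 (chr8:94386311-94386330, plus strand): ggcgggTTgCATCAgcccgc

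Libraries held 15626620 to 33886385 counted reads, with the smallest total in adenine 2. Levels are given in CPM, read counts scaled to the size of the library with TMM factors, and 1 CPM corresponds to between 16.4 and 31.4 reads per library. All 33 members passed the low-count filter, which 20093 genes passed, and the lowest count of any member in any library was 37. The 10 cardiomyocyte markers were all present, at a summed 51527 to 63671 CPM in the controls and 34670 to 59973 CPM in the adenine libraries. Adenine 3 stood apart with the lowest cardiomyocyte sum and with 2065 CPM of Lyz2, the macrophage lysozyme, against 146 to 310 CPM in the other 7 libraries. The 5 atrial markers summed to 4864 CPM in control 2, 2183 CPM in adenine 3 and 105 CPM in adenine 2, against 867 to 1088 CPM in the other 5 libraries. Exons of 11 members overlap those of another annotated gene (Hsp90b1, Dnajb9, Manf, Pdia3, Pdia4, Pdia6, Eif2ak3, Atf5, Ddit3, Ppp1r15a and Shmt2). No source used here gives the strand setting of the counting, and their values are uncertain to that extent. For Hsp90b1, Manf, Pdia4 and Ddit3 some of the overlap is on the same strand and remains whatever that setting. In Ddit3 it is with another annotated gene of the same symbol.

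None of the 33 members passed an adjusted p of 0.05 between the diets, in either direction. The test was edgeR's quasi-likelihood test, adjusted by the Benjamini-Hochberg method over all 20093 genes, in which 8 genes (0.0398%) were higher and 0 (0%) lower on the adenine diet. The DESeq2 Wald test also called 0 members, where it called 0.866% of the genes with an adjusted p higher and 0.991% lower, and limma-voom called 0. In simulated data edgeR called 1% of genes changed by 0.5 on the log2 scale and 48% of those changed by 1. A member not called may therefore still have changed by such an amount. At an unadjusted p under 0.05, edgeR counted 3 members higher and 2 lower, or 9.09% and 6.06% of them, beside 10.9% and 6.63% of all genes tested, so both shares were close to the background. The 2 members lower at that level were Hyou1 and Pdia4, of the ER arm, and the 3 higher ones were Chac1, Sesn2 and Slc3a2, of the ATF4 arm.

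The fold changes of the 2 arms had different medians. Of the 18 ER arm genes, 14 had a negative log2 fold change (adenine minus control) and the median was -0.25, while all genes tested had a median of 0.05. Of the 15 ATF4 arm genes, 11 were negative and the median was -0.03, but with upper-quartile factors 14 were positive and the median was 0.10. Those factors moved the median of all genes to 0.20 and that of the ER arm to -0.11, with 13 of 18 negative. The sign count of the ATF4 arm also turned, to 9 positive and 6 negative, with the filter of 1 CPM in 4 libraries or without adenine 2. Removing both control 2 and adenine 2 gave the same count, and it was 8 positive and 7 negative without adenine 3 or without control 1. The difference between the arms was not tested, because members of an arm are not independent replicates. The 95% interval of the log2 fold change lay within -1 to 1 for 31 of the 33 members, the others being Chac1 and Sesn2, whose upper bounds were 1.19 and 1.07. For those 31 genes a change of 2-fold or more either way lies outside the interval. Which smaller changes also lie outside differs from gene to gene.

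**Figure D1:**
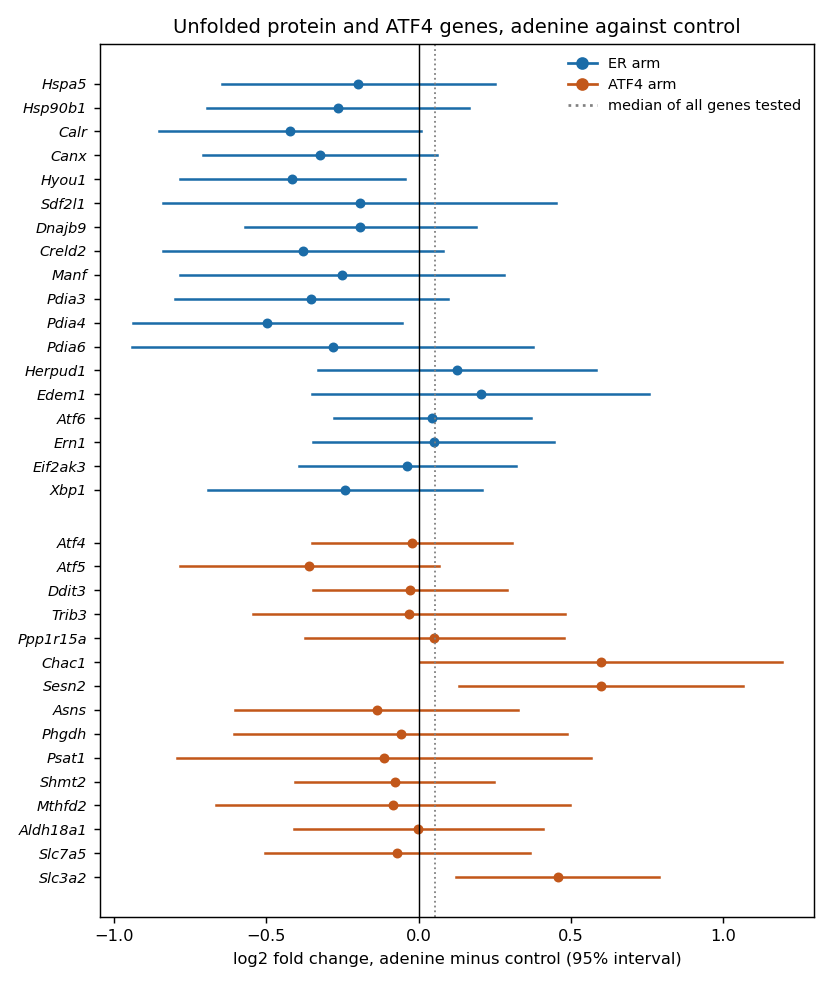
Log2 fold change of each of the 33 genes on the adenine diet against the control diet (x axis), with 95% intervals from edgeR, by gene (y axis). Points of the ER arm (blue) lie mostly left of 0, around their median of -0.25, and those of the ATF4 arm (orange) lie near 0 except for Chac1, Sesn2 and Slc3a2 on the right and Atf5 on the left; the dotted line is the median of all genes tested, 0.05.

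Among the ER chaperones, Hspa5, which encodes BiP, the HSP70 of the ER lumen, was at 352, 435, 242 and 275 CPM in the controls, in the order of their numbers, and at 276, 225, 334 and 302 CPM in the adenine libraries. Control 2 was the highest library and adenine 2 the lowest, and the diets overlapped over most of their range. The log2 fold change was -0.20 (SE 0.21, 95% interval -0.65 to 0.25, adjusted p = 0.572). Hsp90b1, the HSP90 of the ER, had 207 ± 34.1 CPM in the controls and 172 ± 42.1 CPM in the adenine libraries (SD, n = 4 per diet), a log2 fold change of -0.26 (SE 0.20).

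Calr and Canx encode calreticulin and calnexin, the lectin chaperones that hold newly made glycoproteins until they are folded. Calr was at 187, 206, 139 and 163 CPM in the controls and at 139, 86.3, 137 and 157 CPM in the adenine libraries. Adenine 2 was the lowest by far, while adenine 1 and adenine 3 were level with the lowest control and adenine 4 lay inside the control range. Its log2 fold change was -0.42 (SE 0.20, interval -0.85 to 0.01, adjusted p = 0.29). Canx had 228 ± 44.1 and 182 ± 26.6 CPM, with a log2 fold change of -0.32 (SE 0.18).

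Hyou1, a large relative of HSP70 that exchanges nucleotide on BiP, had a lower mean in the adenine libraries. It was at 30.9, 30.9, 20.6 and 24.5 CPM in the controls and at 20.5, 19.6, 16.2 and 23.9 CPM in the adenine libraries. Adenine 4 lay above control 3, so the diets overlapped, and the log2 fold change was -0.41 (SE 0.17, interval -0.78 to -0.04, unadjusted p = 0.0309, adjusted p = 0.271). Unlike most chaperones of this arm it was lowest in adenine 3 rather than in adenine 2. Hyou1 spans chr9:44379490-44392369 on GRCm38.

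The smaller luminal factors gave the same picture with more scatter. Creld2, which interacts with disulfide isomerases, had a log2 fold change of -0.38 (SE 0.21), and Manf, a secreted factor held in the ER, one of -0.25 (SE 0.25). Dnajb9, a BiP co-chaperone, had -0.19 (SE 0.18) and Sdf2l1, a partner of ER chaperone complexes, -0.19 (SE 0.30). Sdf2l1 ran from 3.65 to 9.25 CPM among the controls alone, a 2.53-fold range, the widest of the ER arm. None of the 4 had an adjusted p below 0.338.

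The disulfide isomerases Pdia3, Pdia4 and Pdia6 form and rearrange disulfide bonds in folding proteins. Pdia4 had the most negative log2 fold change of the 33 members. It was at 37.9, 39.3, 25.8 and 28.2 CPM in the controls and at 24.2, 15.5, 30.02 and 23.1 CPM in the adenine libraries. Adenine 2 was the lowest library, whereas adenine 3 lay above control 3 and control 4. The log2 fold change was -0.50 (SE 0.20, interval -0.94 to -0.06, unadjusted p = 0.0301, adjusted p = 0.271), and without adenine 3 it was -0.65 with an adjusted p of 0.0798. Pdia4 spans chr6:47796141-47813430, and its exons hold the microRNA gene Mir704. Pdia3 was at 69.4 and 70.6 CPM in adenine 1 and adenine 2 but at 129 and 111 CPM in adenine 3 and adenine 4, inside the control range of 105 to 137 CPM, with a log2 fold change of -0.35 (SE 0.21). Pdia6 was at 112 CPM in adenine 3 and 36.4 CPM in adenine 2, a 3.07-fold range within 1 diet, and its log2 fold change of -0.28 (SE 0.30) was -0.65 without adenine 3.

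The 2 degradation factors had positive log2 fold changes, each through 1 library. Herpud1, which recruits ubiquitin ligases to the ER membrane, was at 59.5 to 66.9 CPM in the controls and at 106, 58.5, 50.1 and 55.8 CPM in the adenine libraries. Adenine 1 alone was high, and the log2 fold change of 0.13 (SE 0.21) became -0.19 without it. Edem1, which extracts misfolded glycoproteins for degradation, was at 13.2 to 16.7 CPM in the controls and at 11.8, 12.9, 29.2 and 13.5 CPM in the adenine libraries. Here adenine 3 alone was high, and the log2 fold change of 0.20 (SE 0.26) became -0.21 without it.

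The sensors had the fold changes nearest to 0 in the ER arm. Atf6, the membrane-bound transcription factor, had 59.4 ± 10.3 CPM in the controls and 61.3 ± 1.52 CPM in the adenine libraries, a log2 fold change of 0.04 (SE 0.15). Ern1, the kinase and nuclease that splices Xbp1, had 0.05 (SE 0.18), and Eif2ak3, the eIF2 kinase PERK, had -0.04 (SE 0.16). Their 95% intervals were -0.28 to 0.37, -0.35 to 0.44 and -0.39 to 0.32. Xbp1, the transcription factor whose spliced form drives secretory genes, was at 50.3, 49.9, 29.5 and 34.2 CPM in the controls and at 34.7, 24.6, 43.2 and 35.8 CPM in the adenine libraries. Its order over the libraries resembled that of the chaperones, with controls 1 and 2 high and adenine 2 lowest, and its log2 fold change was -0.24 (SE 0.21, adjusted p = 0.493).

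**Figure D2:**
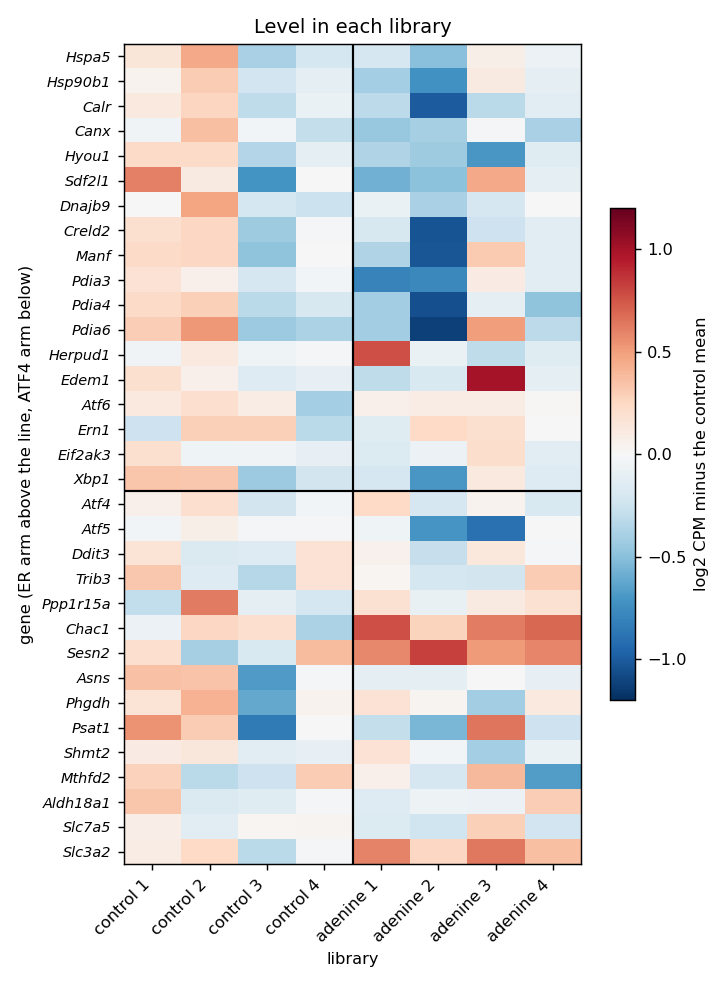
Log2 CPM of each gene (rows) in each library (columns), minus that gene's mean over the 4 control libraries. In the ER arm, control 2 holds the highest level for 9 of 18 genes and adenine 2 the lowest for 9 of 18; in the ATF4 arm, the rows of Chac1, Sesn2 and Slc3a2 are high in the adenine libraries.

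The ER arm varied between libraries of 1 diet as much as between diets. The members' median log2 distance from their control means was 0.18, 0.25, -0.27 and -0.11 in the controls by number, and -0.31, -0.49, 0.09 and -0.13 in the adenine libraries. Control 1 and control 2 were high, adenine 2 was lowest, adenine 3 sat between control 1 and control 4, and the diets overlapped. Of the 18 genes, 9 had their highest level in control 2, 4 in control 1 and 3 in adenine 3, while 9 had their lowest level in adenine 2 and 4 in adenine 1. No ER arm gene had all adenine libraries below all control libraries, which 3.84% of all genes tested had.

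The median log2 fold change of the ER arm depended on which libraries were kept. It was -0.11 without adenine 2, -0.14 without control 2, -0.40 without adenine 3 and -0.19 to -0.33 when any other library was left out. With control 2 and adenine 2 both removed, a choice made after their values were seen, it was 0.01, with 9 genes positive and 9 negative, while the median of all genes tested was 0.05. These were the control library with the highest ER arm median and the adenine library with the lowest, so a rise was built into that choice. No pair chosen in the opposite direction was removed. The library with the highest ER arm median was also the one with the highest sum of atrial markers, and the library with the lowest was the one with the lowest sum. Among single atrial markers, Nppa, the natriuretic peptide, ran from 404 to 1043 CPM in the controls and from 94.7 to 1683 CPM on the adenine diet. Myl7, the atrial light chain, was at 1532 CPM in control 2, 2.08 CPM in adenine 2 and 2.80 CPM in adenine 4. Adenine 4 reached its atrial sum of 942 CPM almost wholly through Nppa, and its median over the atrial markers, -4.75 on the log2 scale relative to the controls, was near that of adenine 2 (-4.92), although its ER arm median was -0.13. None of the 5 atrial markers was at 0 in any library, and their part in the ER arm's values was not tested.

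Levels of other cell types also moved with libraries and with the diet. The 10 macrophage markers had a sum of 2804 CPM in adenine 3, with controls at 426 to 730 CPM and the remaining adenine libraries at 340 to 517 CPM. The fibroblast, endothelial, mural, cardiomyocyte, atrial, adipocyte and erythroid lists had negative median log2 fold changes, as the ER arm had (-0.25). The 10 cardiomyocyte markers were all negative, with a median of -0.13. The macrophage, plasma and B cell, T cell and neutrophil lists had positive medians. By library, the T cell median was 0.92 and 0.66 in adenine 2 and adenine 4, and -0.17 and -0.40 in adenine 1 and adenine 3. Of 7 plasma and B cell markers 5 were highest in adenine 2, as were 4 of 5 T cell markers. Of all genes tested, 6.63% were lower at an edgeR unadjusted p under 0.05 and 3.84% lay wholly below the controls. Of the genes given an adjusted p by DESeq2, 0.991% were called lower. Of 7 fibroblast markers, 5 were negative, the same 5 at an unadjusted p under 0.05. Of these markers, 4 lay wholly below the controls and 4 were called lower by DESeq2 (0 by edgeR). Their median relative to the control mean ran from -1.32 to -0.45 on the log2 scale among adenine libraries, below every control (-0.25 to 0.36). Their summed level hid this in adenine 3, where it was 2115 CPM against 1148 to 1746 CPM in the controls, through the collagen genes Col1a1 and Col1a2 at 433 and 958 CPM. The 6 endothelial markers were all negative (median log2 fold change -0.42), 4 of them at an unadjusted p under 0.05 and 3 without overlap, and DESeq2 called Tek, the angiopoietin receptor, lower (adjusted p = 0.0075). Their sum was 398 to 544 CPM on the adenine diet and 530 to 686 CPM in the controls. Of 6 mural markers 5 were negative (median -0.27), with sums of 486 to 803 and 690 to 1029 CPM. The 5 erythroid markers did not overlap between the diets, at 7016 to 26079 CPM in the controls and 1660 to 3090 CPM on adenine. Plasma and B cells, which are rich in ER, were represented by 7 of 9 listed markers, at a sum of 5.39 to 9.36 CPM in the controls and 6.18 to 16.9 CPM in the adenine libraries. No marker of any of these lists was at 0 in any library, and the part of these cells in the members' values was not tested. In bulk tissue, fewer cells of a type and less RNA per cell cannot be told apart.

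**Figure D3:**
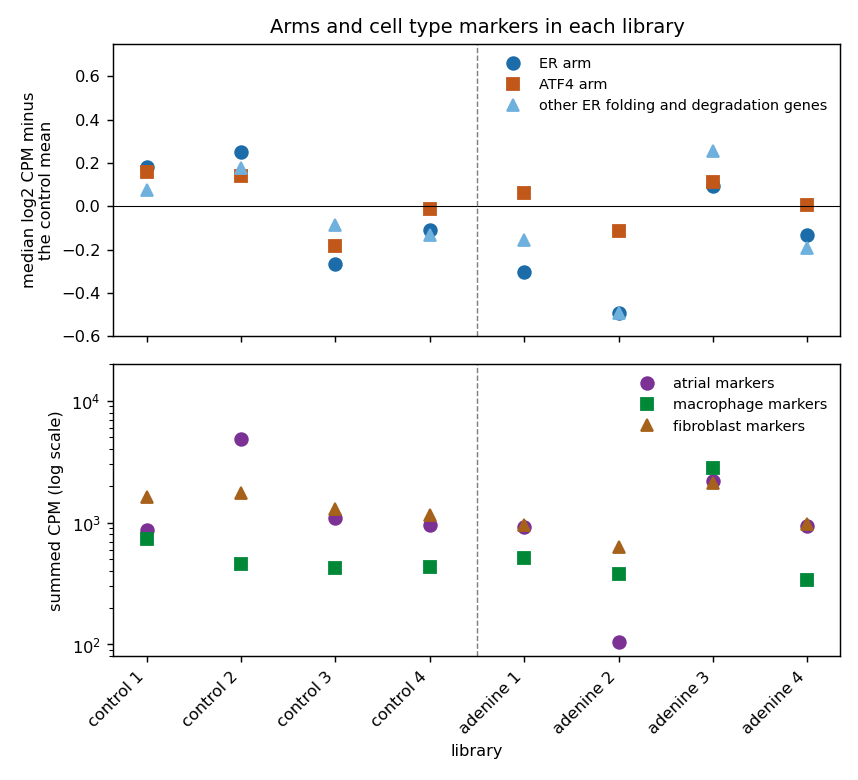
Top, the median over genes of log2 CPM minus the control mean for the ER arm, the ATF4 arm and a list of other ER folding and degradation genes, in each library. Bottom, the summed CPM (log axis) of atrial, macrophage and fibroblast markers in the same libraries. The ER arm is highest in control 2 (0.25) and lowest in adenine 2 (-0.49), the libraries with the highest (4864 CPM) and lowest (105 CPM) atrial sums.

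The 6 ER arm genes with the ER stress element printed above had log2 fold changes of -0.42 to -0.20 (median -0.30). The 9 with a promoter but without those letters had -0.50 to 0.20 (median -0.19), 6 of them negative. The ranges overlapped and the difference was not tested. The 6 are all folding genes, whereas the 9 also include Herpud1, Edem1, Ern1, Eif2ak3 and Xbp1, so the sets differ in gene role too. The folding genes among the 9 had -0.19 (Sdf2l1), -0.19 (Dnajb9), -0.35 (Pdia3) and -0.50 (Pdia4). Herpud1 held the second form of the element.

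The regulators of the ATF4 arm other than Atf5 were level between the diets. Atf4 itself was at 74.4, 81.9, 61.2 and 69.6 CPM in the controls and at 84.5, 62.1, 73.3 and 62.8 CPM in the adenine libraries. The 2 ranges coincided, with a log2 fold change of -0.02 (SE 0.15, interval -0.35 to 0.31, adjusted p = 0.939). Ddit3, the factor CHOP that acts late in ER stress, had 20.01 ± 2.65 and 19.6 ± 2.29 CPM and a log2 fold change of -0.03 (SE 0.15, interval -0.35 to 0.29). Trib3, a pseudokinase that restrains ATF4 signalling, had -0.03 (SE 0.24). Ppp1r15a, the phosphatase subunit GADD34 that reverses eIF2 phosphorylation, had 0.05 (SE 0.20), with 28.9 CPM in control 2 and 15.3 to 21.3 CPM in the other 7 libraries.

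Atf5, a relative of ATF4 linked to mitochondrial stress, had the most negative value of this arm. It was at 91.7, 98.9, 92.8 and 92.5 CPM in the controls and at 90.4, 57.7, 50.4 and 94.5 CPM in the adenine libraries. Adenine 2 and adenine 3 were low and the other adenine libraries were at the control level. The log2 fold change was -0.36 (SE 0.20, interval -0.78 to 0.07, adjusted p = 0.331).

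In 3 ATF4 arm genes all 4 adenine libraries lay above all 4 controls, which was so for 3.45% of all genes tested. With DESeq2 size factors in place of TMM scaling this held for Sesn2 only, and with upper-quartile factors for all 3. Slc3a2 encodes the heavy chain shared by several amino acid exchangers. It was at 31.1, 34.5, 23.4 and 28.97 CPM in the controls and at 44.1, 34.7, 45.3 and 37.5 CPM in the adenine libraries, so that adenine 2 barely exceeded control 2. The log2 fold change was 0.46 (SE 0.15, interval 0.12 to 0.79, unadjusted p = 0.0112, adjusted p = 0.24).

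Sesn2 encodes sestrin 2, a leucine sensor that holds back mTORC1 and is a target of ATF4 and of p53. It was at 5.09, 3.32, 3.87 and 5.77 CPM in the controls and at 6.64, 7.83, 6.30 and 6.65 CPM in the adenine libraries. Every adenine library was above the highest control, control 4, and the log2 fold change was 0.60 (SE 0.22, interval 0.13 to 1.07, unadjusted p = 0.0156, adjusted p = 0.249). Chac1 encodes an enzyme that degrades glutathione and is among the best known targets of ATF4 and CHOP. It was at 1.77, 2.24, 2.16 and 1.41 CPM in the controls and at 3.24, 2.26, 2.90 and 3.07 CPM in the adenine libraries. Adenine 2 was level with control 2, and the log2 fold change was 0.60 (SE 0.28, interval 0.003 to 1.19, unadjusted p = 0.0489, adjusted p = 0.284).

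None of these 3 genes passed the threshold under any of the 18 alternative settings for which a value was obtained. Their lowest adjusted p was 0.118 for Slc3a2, 0.102 for Sesn2 and 0.206 for Chac1, and their highest was 0.49, 0.797 and 0.574. The log2 fold change stayed positive throughout, at 0.38 to 0.63, 0.43 to 0.73 and 0.48 to 0.80. On GRCm38, Slc3a2 spans chr19:8706882-8723369, Sesn2 chr4:132492032-132510501 and Chac1 chr2:119351229-119354381, and exons of none of them overlap another annotated gene. Of the 3 promoters, only that of Chac1 held the C/EBP-ATF letters, 193 bases before its start. Asns and Trib3 also held the letters, with log2 fold changes of -0.14 and -0.03, and a link between the letters and the diet was not tested. The Chac1 promoter is shown here for the 250 bases that end before the start (chr2:119350992-119351241, plus strand).
Chac1: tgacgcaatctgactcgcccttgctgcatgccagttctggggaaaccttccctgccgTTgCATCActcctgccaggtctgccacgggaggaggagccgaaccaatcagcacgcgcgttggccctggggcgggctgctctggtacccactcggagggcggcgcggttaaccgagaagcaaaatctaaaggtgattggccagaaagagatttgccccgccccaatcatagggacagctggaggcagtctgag

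**Figure D4:**
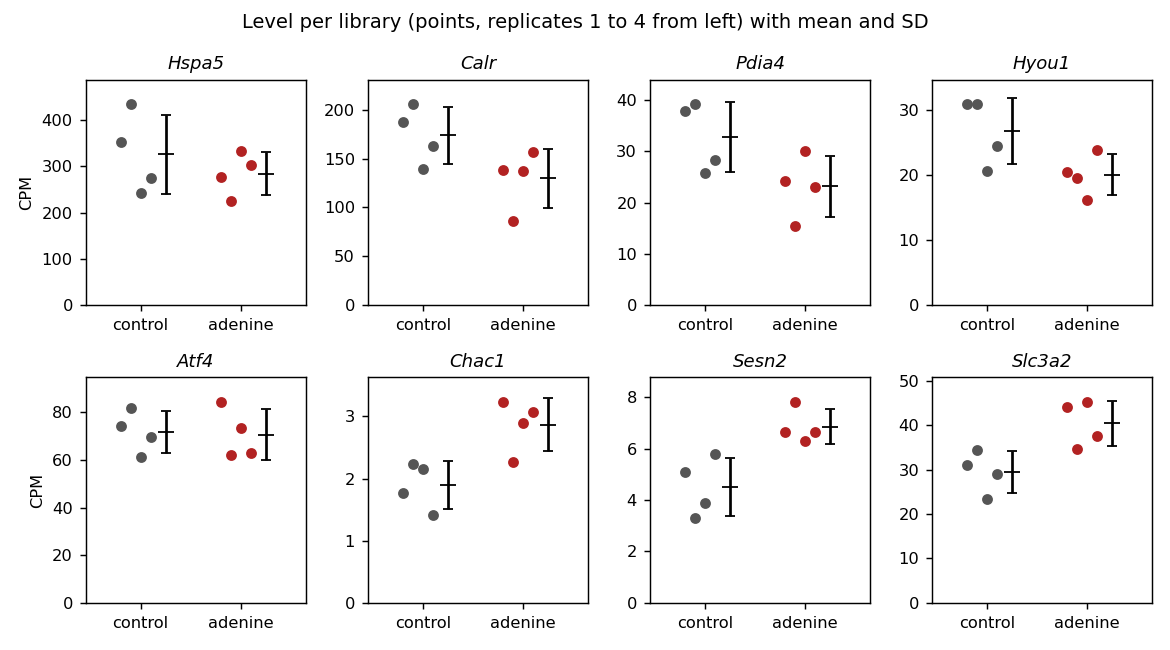
CPM of 4 ER arm genes (top row) and 4 ATF4 arm genes (bottom row) in each of 4 control (grey) and 4 adenine (red) libraries, with the mean and SD per diet in black. The diets overlap for Hspa5, Calr, Pdia4, Hyou1 and Atf4, and all 4 adenine points lie above the controls for Chac1, Sesn2 and Slc3a2, by a narrow margin in Chac1 and Slc3a2.

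The biosynthetic genes of the ATF4 arm gave no separation. Asns, asparagine synthetase, which like Chac1 and Trib3 held a C/EBP-ATF match, was at 11.5, 11.5, 5.59 and 8.94 CPM in the controls and at 8.32, 8.32, 9.07 and 8.41 CPM in the adenine libraries. The adenine libraries fell inside the control range, and the log2 fold change was -0.14 (SE 0.22, interval -0.60 to 0.33). Phgdh and Psat1, the first enzymes of serine synthesis, had -0.06 (SE 0.25) and -0.11 (SE 0.31), and both had their lowest level in control 3. Shmt2 and Mthfd2, which move one-carbon units in mitochondria, had -0.08 (SE 0.15) and -0.08 (SE 0.27). Aldh18a1, an enzyme of proline synthesis, had -0.001 (SE 0.19), the value nearest to 0 of all members. Slc7a5, the light chain that pairs with the Slc3a2 product to carry leucine, was at 4.81 to 5.58 CPM in the controls and 4.46 to 6.46 CPM in the adenine libraries, with -0.07 (SE 0.20, interval -0.50 to 0.36). Whether its fold change differs from that of Slc3a2 was not tested.

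Per kilobase of annotated exon, the members spanned a wide range of levels in the control hearts. Hspa5 was highest at 77.1 CPM per kilobase, followed by Calr at 60.4, Hsp90b1 at 51.4, Canx at 48.6 and Atf5 at 47.2, the highest of the ATF4 arm. Atf4 was at 30.4 and Ddit3 at 11.7 CPM per kilobase. The sensors were low, with Atf6 at 6.44 and Ern1 at 1.47, and Chac1 was the lowest member at 1.16. Among the controls of a gene, the highest level was a median of 1.53 times the lowest over the ER arm and 1.56 times over the ATF4 arm.

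Other genes of the pathways were read in the same test, and none passed it. Of 40 further ER folding and degradation genes tested, 0 were called, 30 had negative log2 fold changes and the median was -0.12. Their median level was highest in adenine 3 (0.26 on the log2 scale relative to the control mean) and lowest in adenine 2 (-0.49). The lowest p belonged to Magt1, a subunit of the glycosylation complex, with -0.36 (SE 0.13, adjusted p = 0.251), followed by Dad1, another subunit, with -0.30 (SE 0.16). Of 14 further stress transducers 0 were called, with a median of -0.15. Creb3l1, a membrane-bound relative of ATF6, had -0.61 (SE 0.19), and Ern2, the epithelial relative of Ern1, 1.21 (SE 0.52), with 3.18 CPM in adenine 2, above the 0.271 to 1.56 CPM of the rest.

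Further targets of ATF4 and amino acid genes had a positive median. Of 25 tested, 19 had positive log2 fold changes, the median was 0.36, and 0 passed in edgeR, where 5 were higher and 1 lower at an unadjusted p under 0.05. DESeq2 called 3 of them higher. Over all genes tested, 54.2% were positive, 10.9% were higher at that p and DESeq2 called 0.866% higher. Cebpb, a partner of ATF4 that glucocorticoids and inflammatory signals also induce, was at 7.77, 12.03, 8.94 and 8.37 CPM in the controls and at 31.9, 18.1, 27.2 and 14.99 CPM in the adenine libraries. All adenine libraries were above the controls, and the log2 fold change was 1.31 (SE 0.23, adjusted p = 0.0744). It passed in DESeq2 (adjusted p = 0.00132), with upper-quartile factors (0.0218) and without adenine 3 (0.0339) or adenine 4 (0.034). Slc7a3, a transporter of cationic amino acids, was at 0.41 to 0.535 CPM in the controls and at 0.923 to 2.14 CPM in the adenine libraries, with 1.61 (SE 0.41, adjusted p = 0.176, and 0.0217 in DESeq2).

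Named after their values were seen, Mthfd1l, a mitochondrial one-carbon enzyme, had 0.87 (SE 0.23) and was the third gene called by DESeq2 (adjusted p = 0.0369). Bcat1, which transfers the amino group of branched amino acids, had 1.003 (SE 0.31), Pycr1, a proline enzyme, 0.67 (SE 0.27) and Gpt2, a mitochondrial alanine aminotransferase, -0.65 (SE 0.18), none of them called in either test. The secreted stress hormones Gdf15 and Fgf21 had 0.58 (SE 0.34) and 0.85 (SE 0.59), and Atf3 had 0.61 (SE 0.37), with 15.3 CPM in adenine 3. Of the 25 genes, 8 had their highest level in adenine 3. In adenine 2 the count was 9, among them Slc7a3, Mthfd1l, Bcat1, Pycr1, Fgf21, Cth and Cbs. Sesn2 was the only member with its highest level in adenine 2, and without that library its log2 fold change was 0.53 (adjusted p = 0.488). That library also had the most reads on 1472 odorant and pheromone receptor genes, a sum of 2009 CPM. The sums were 423 to 851 CPM on the control diet and 653 to 1226 CPM in adenine 1, 3 and 4. The part of such background reads in the values of these low genes, Sesn2 included, was not tested. Nor was it tested for Ern2 or for the plasma, B and T cell markers.

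Among the remaining lists, 0 genes were called. The 20 cytosolic aminoacyl-tRNA synthetases, which are ATF4 targets in many cells, had a median of -0.15, with 18 negative, and log2 fold changes from -0.23 to 0.05. Of these 20 genes, 11 had their highest level in control 2. Iars and Nars, those with the lowest p, had -0.22 (SE 0.14) and -0.23 (SE 0.16). The 17 genes of the eIF2 kinases and the eIF2 machinery had a median of -0.16, and 9 of them were highest in control 2. Eif2ak4, the kinase GCN2 that senses uncharged tRNA, had 0.37 (SE 0.15) and Oma1, the protease that relays mitochondrial stress, -0.40 (SE 0.17). The 11 mitochondrial chaperones and proteases were all negative, with a median of -0.27. All 11 had their highest level in control 2. Their sum was 1171 CPM in control 4, below the 1183 to 1310 CPM of the adenine libraries, so the diets overlapped. Hspd1, the mitochondrial HSP60, was at 183 to 277 CPM in the controls and 146 to 176 CPM in the adenine libraries, without overlap, and had -0.49 (SE 0.16, adjusted p = 0.236), while Hspe1, its co-chaperone, had -0.30 (SE 0.14).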

How the data were processed

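The table holds raw read counts per gene, which the authors deposited unscaled, 1 column per library. Per the submitters' processing notes, the genome was GRCm38.p6 and the tools included STAR 2.7.6a and FastQC 0.11.9. No source used here names the counting program, annotation or strand setting. Groups and replicate numbers came from the sample titles.

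Counts were tested across all genes in R 4.3.3 with edgeR 4.0.16 (default low-count filter by group, TMM factors, quasi-likelihood F-test, Benjamini-Hochberg adjustment, called at an adjusted p under 0.05). Standard errors come from the F statistic and 95% intervals from the moderated degrees of freedom. The common biological coefficient of variation was 0.293. Alternatives used DESeq2 1.42.0, limma-voom (limma 3.58.1), other scalings and filters, a block for the replicate number, leaving out each library and, added after seeing the data, removal of 2 libraries. Levels per library relative to the control mean used log2 CPM with a prior count of 2. The fits were tested on simulated data, with 100 genes changed by 0.5 and 100 by 1 on the log2 scale. At an adjusted p under 0.05, edgeR recovered 1% and 48% of them and DESeq2 8% and 63%. Of 27304 identifiers, 27275 matched GENCODE M21 (GRCm38), which gave coordinates and exon lengths.

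The members and the gene lists were chosen with earlier results of these data known. All members are named, with up to 2 genes of lowest p per uncalled pathway list. Marker genes named are the most abundant of a list, besides Myl7, Col1a1, Col1a2 and Tek, which were chosen after their values were seen. No pair of replicates looked like 1 library deposited again, since chi-square per gene between them ran from 20.3 to 97.7, far above sampling noise.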

Additional observations from a re-analysis of the deposited data

Results flagged for a closer look

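Levels of the 33 genes were examined for a library far from the other 3 of its diet. Of 66 groups of 4 libraries, 7 had one. The cut-off flags about 1 in 20 groups of independent, normally distributed values. These groups are genes read in the same libraries, and 4 of the 7 flags fell in adenine 3, so no excess over that rate can be read from the count. In adenine 3, Edem1 was at 29.2 CPM where the rest of its diet had 11.8 to 13.5 CPM, Canx at 222 CPM against 164 to 173, Slc7a5 at 6.46 CPM against 4.46 to 4.72 and Asns at 9.07 CPM against 8.32 to 8.41. In adenine 1, Herpud1 was at 106 CPM against 50.1 to 58.5. In control 2, Ppp1r15a was at 28.9 CPM against 15.3 to 17.3 in the other controls and Atf5 at 98.9 CPM against 91.7 to 92.8. The differences in Asns and Atf5 are small in size, since the other 3 libraries happened to lie close together. Adenine 3 is also the library with the highest macrophage marker sum, 2804 CPM, and the part of that in these values was not tested.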

How the results depend on the processing

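No member was called higher or lower under any alternative, while the count over all genes moved. Genes called higher and lower numbered 8 and 0 in the main test, 18 and 1 with upper-quartile factors, 153 and 175 in DESeq2, 5 higher in limma-voom, 6 lower in robust edgeR, 1 lower without the low-count filter, 21 and 10 at an adjusted p under 0.1, and 1 lower with control 2 and adenine 2 both removed. With each library left out, 1 to 37 genes were higher and 0 to 30 lower, both highest without adenine 3. With the replicate number as a block, 16 were higher and 16 lower, and no member was. Deviations of same-numbered libraries from their diet means had correlations of 0.09, -0.50, -0.16 and 0.30 for numbers 1 to 4, without a common sign. These values cannot settle whether the numbers pair the samples.

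Upper-quartile factors moved the median of all genes from 0.05 to 0.20 and that of the ATF4 arm from -0.03 to 0.10, and the ER arm median from -0.25 to -0.11. Removing control 2 and adenine 2 moved the ER arm median from -0.25 to 0.0095, a rise built into the choice of that pair. The other alternatives moved both medians by less than the spread between libraries.

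Signs near 0 turned under scaling. With upper-quartile factors the log2 fold changes were 0.10 for Eif2ak3, 0.12 for Atf4, 0.10 for Ddit3, 0.11 for Trib3, 0.014 for Asns, 0.10 for Phgdh, 0.018 for Psat1, 0.074 for Shmt2, 0.033 for Mthfd2, 0.14 for Aldh18a1 and 0.058 for Slc7a5. With the filter of 1 CPM in 4 libraries they were 0.034 for Eif2ak3, 0.049 for Atf4, 0.037 for Ddit3, 0.034 for Trib3, 0.016 for Phgdh and 0.068 for Aldh18a1. Aldh18a1 had 0.0017 in limma-voom and 0.0016 with the replicate block. With control 2 and adenine 2 both removed they were 0.091 for Hspa5, 0.078 for Dnajb9, 0.042 for Manf, 0.15 for Pdia6, 0.021 for Xbp1, 0.13 for Atf4, 0.0096 for Ddit3, 0.0068 for Asns, 0.091 for Phgdh and 0.13 for Psat1.

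With each library left out, signs turned within -0.10 to 0.12 for Aldh18a1, -0.13 to 0.047 for Atf4, -0.078 to 0.11 for Atf6, -0.089 to 0.046 for Ddit3, -0.21 to 0.35 for Edem1, -0.14 to 0.025 for Eif2ak3, -0.057 to 0.16 for Ern1, -0.19 to 0.24 for Herpud1, -0.28 to 0.099 for Mthfd2, -0.23 to 0.081 for Phgdh, -0.056 to 0.31 for Ppp1r15a, -0.45 to 0.073 for Psat1, -0.47 to 0.036 for Sdf2l1, -0.19 to 0.0098 for Shmt2, -0.23 to 0.0016 for Slc7a5 and -0.15 to 0.081 for Trib3. None of these values passed the threshold, and the cause of the turns was not tested. Genes below about 5 CPM, such as Chac1, Trib3 and Mthfd2, rest on few reads in the smallest library.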
